A study of Homo sapiens with 48 samples.

Results

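The integrins, laminins and collagens were examined in SW480 cells, a human colorectal adenocarcinoma line, after inducible knockdown of EIF2B1 or EIF2B4. Members were taken by gene symbol alone: every ITGA and ITGB gene, every laminin chain (LAMA, LAMB, LAMC) and every collagen chain (COL followed by a number, A and a number). There are 31 genes described, of the 12256 with a value in either table, made up of 13 integrins, 6 laminins and 12 collagens. Ribosome-protected fragments (RPFs, the mRNA pieces covered by ribosomes) had 30 of them among 11145 genes. Total cytoplasmic RNA had 26 among 11947 genes, and 25 were in both tables. COL5A1, COL6A2, COL7A1, COL8A2 and ITGB2 had a row in RPFs only, and ITGB8 in total RNA only.

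The cells carried a doxycycline-inducible shRNA, either a non-targeting one (shCTRL) or one against EIF2B1 (eIF2Bα) or EIF2B4 (eIF2Bδ), 2 subunits of the factor that recharges eIF2 with GTP for translation initiation. Each line was a pool of stably transduced cells with 1 shRNA sequence, and was grown for 5 days in DMSO (-DOX) or 1 µg/ml doxycycline (+DOX). Every one of the 6 conditions was repeated in 4 separate weeks, which gave 24 lysates, each sequenced as RPFs and as total RNA. All values are the deposited regularized log2 values, which state a gene's level relative to the other genes of a library, so that read depth is unknown.

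Integrins are receptors of 1 α and 1 β chain that join the extracellular matrix to the cytoskeleton. Laminins are cross-shaped trimers of an α, a β and a γ chain, and form the sheet of the basement membrane on which epithelial cells rest. LAMA3 and LAMB3 are chains of the laminin of epithelial anchoring sites. LAMA5 joins LAMB1 or LAMB2 and LAMC1 in the main laminins of adult intestinal basement membrane. ITGA3 with ITGB1, and ITGA6 with ITGB4 or ITGB1, bind these laminins. Collagens are built of triple helices in which a glycine recurs in each repeat, and range from the network-forming chains of the basement membrane to fibril-forming and membrane-spanning chains. In carcinomas these genes bear on attachment, migration and invasion.

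The coding sequences (CDS) of these families differ much in base composition. The RPF responses to knockdown and the RPF differences between uninduced lines moved with it, so stretches of 5 laminin and integrin genes are shown. Each is a 90-base, in-frame stretch within 1 coding exon, the one whose share of G or C at the third codon position was nearest to that of the whole CDS. It is written 5′ to 3′ on the coding strand. Capitals mark a G or C at the third position of a codon.
LAMA5: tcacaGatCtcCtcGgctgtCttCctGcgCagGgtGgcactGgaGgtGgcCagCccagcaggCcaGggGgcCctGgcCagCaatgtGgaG
LAMB3: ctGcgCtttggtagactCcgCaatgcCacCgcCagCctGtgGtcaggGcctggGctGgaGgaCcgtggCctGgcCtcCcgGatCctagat
ITGA3: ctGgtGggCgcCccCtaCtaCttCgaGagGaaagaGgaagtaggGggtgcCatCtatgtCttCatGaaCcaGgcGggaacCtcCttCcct
LAMC1: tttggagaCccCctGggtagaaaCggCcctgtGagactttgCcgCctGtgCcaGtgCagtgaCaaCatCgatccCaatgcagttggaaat
ITGA6: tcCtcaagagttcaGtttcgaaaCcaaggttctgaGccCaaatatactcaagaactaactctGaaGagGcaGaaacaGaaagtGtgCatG

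On GRCh38 these stretches lie at chr20:62325358-62325447 (exon 41 of LAMA5, minus strand), chr1:209625746-209625835 (exon 14 of LAMB3, minus strand) and chr17:50071999-50072088 (exon 7 of ITGA3, plus strand). The others lie at chr1:183124663-183124752 (exon 14 of LAMC1, plus strand) and chr2:172484832-172484921 (exon 12 of ITGA6, plus strand). Of 30 codons, 24 ended in G or C in the LAMA5 stretch, 23 in ITGA3, 21 in LAMB3, 16 in LAMC1 and 13 in ITGA6. Over the whole CDS GC3, the GC share of the third codon position, was 81.6% in LAMA5, 75.9% in ITGA3, 70.5% in LAMB3, 54.5% in LAMC1, 42.7% in ITGA6 and 38.6% in ITGB1. LAMB2 and LAMA3, of which no stretch is shown, had 62.1% and 50.8%.

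Collagen coding sequences are rich in G and C for another visible reason, the glycine codon (GGN) of each triple-helix repeat, in capitals in the next stretches. They are given because, of the chains shown, COL9A3 alone passed the test in RPFs after EIF2B1 knockdown. Among chains not shown, COL16A1 and COL5A1, with 24.4% and 23.3% glycine codons, passed too, and COL13A1, with 26.5%, did not.
COL9A3: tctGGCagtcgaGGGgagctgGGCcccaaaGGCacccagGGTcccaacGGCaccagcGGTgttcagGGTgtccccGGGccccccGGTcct
COL4A2: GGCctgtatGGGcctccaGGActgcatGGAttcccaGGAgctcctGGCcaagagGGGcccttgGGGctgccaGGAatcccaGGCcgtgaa
COL8A2: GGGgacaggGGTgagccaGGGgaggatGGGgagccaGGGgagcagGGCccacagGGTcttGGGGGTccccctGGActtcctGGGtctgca

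These lie at chr20:62836187-62836276 (exon 28 of COL9A3), chr13:110478074-110478163 (exon 30 of COL4A2), both on the plus strand, and chr1:36098583-36098672 (exon 4 of COL8A2, minus strand). Unlike the laminin and integrin stretches, they were chosen for their glycine codons, so the count in each follows from the choice. The glycine codon made up 10, 10 and 11 of the 30 codons. Over the whole CDS it was 30.7% of codons in COL9A3, 27.6% in COL4A2 and 27.5% in COL8A2, against 6.76% (ITGB8) to 9.63% (ITGA5) among the integrins and laminins. Their RPF responses to EIF2B1 knockdown, on the log2 scale, were 0.56 for COL9A3, which passed the test, and 0.02 for COL4A2 and 0.30 for COL8A2, which did not. The responses of these chains were not tested against one another.

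The libraries were checked against the labels first. In total RNA EIF2B1 fell by 0.67 ± 0.15 (log2, SE) after its own shRNA, adjusted p = 0.0263, and EIF2B4 fell by 0.49 ± 0.14 after its own, adjusted p = 0.0634 (limma). In RPFs EIF2B1 fell by 0.53, adjusted p = 0.0109, and the EIF2B4 response to its own shRNA was -0.48, adjusted p = 0.236. Of 9 colorectal epithelial markers 6 had a row (EPCAM, KRT8, KRT18, KRT19, CDH1, CDX2), and VIL1, CDX1 and CDH17 had none. Of 7 fibroblast markers ACTA2 alone had a row, none of 4 endothelial markers did, and CD68 (both tables) and CD14 (RPFs) were the leukocyte markers present. In RPFs of uninduced shCTRL cells EPCAM, KRT8, KRT18, KRT19 and CDX2 had means of 7.51 to 14.7. CDH1 had 4.26, below ACTA2 at 6.65, CD68 at 6.10 and CD14 at 4.62. All shEIF2B4 RPF libraries lay lower, with library medians of 6.84 to 6.97 against 6.98 to 7.12 in the other lines. RPF libraries also differed by week along CDS GC. Across genes, the difference of a library from the mean of all 24 correlated with CDS GC at 0.378 to 0.787 in the 6 libraries of week 1 and at -0.335 to -0.712 in the 6 of week 4. The uninduced shEIF2B4 library of week 1 stood apart from its group, at 0.735 against -0.563 to -0.695 in the other 3 weeks. It lay within the range of its own week. The uninduced shEIF2B4 library of week 3, at -0.563, lay below the other libraries of week 3, which were at 0.17 to 0.71.

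Per kilobase of CDS, integrins took 4 of the 5 highest RPF levels among members with a CDS length in uninduced shCTRL cells. ITGA6 stood first at 9.55 ± 0.21 (log2 RPFs per kilobase, SD, n = 4), followed by ITGB1 at 9.40 ± 0.29, COL9A3 at 9.30 ± 0.37, ITGB4 at 9.18 ± 0.40 and ITGA3 at 9.11 ± 0.36. These neighbours differed by less than the larger of their SDs. ITGB5, ITGA5, LAMC1, ITGAV and ITGA1 came next at 8.59 to 8.17, where again no neighbouring pair differed by more than the larger SD, and a gap of 3.06 SD then separated ITGA1 from LAMB1 at 7.33 ± 0.06. Of the 28 members with a CDS length, 16 lay above the median of all genes, 6.56. LAMB3 and LAMA3, at 6.37 ± 0.41 and 4.77 ± 0.14, lay below the other laminin chains described. Of the collagens with a CDS length, those other than COL9A3 and COL6A1 lay below that median, down to 2.02 for COL6A2 and 1.26 for COL6A3, the chains that assemble with COL6A1. COL18A1 and COL7A1 had no matched CDS and were not ranked.

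**Figure D1:**
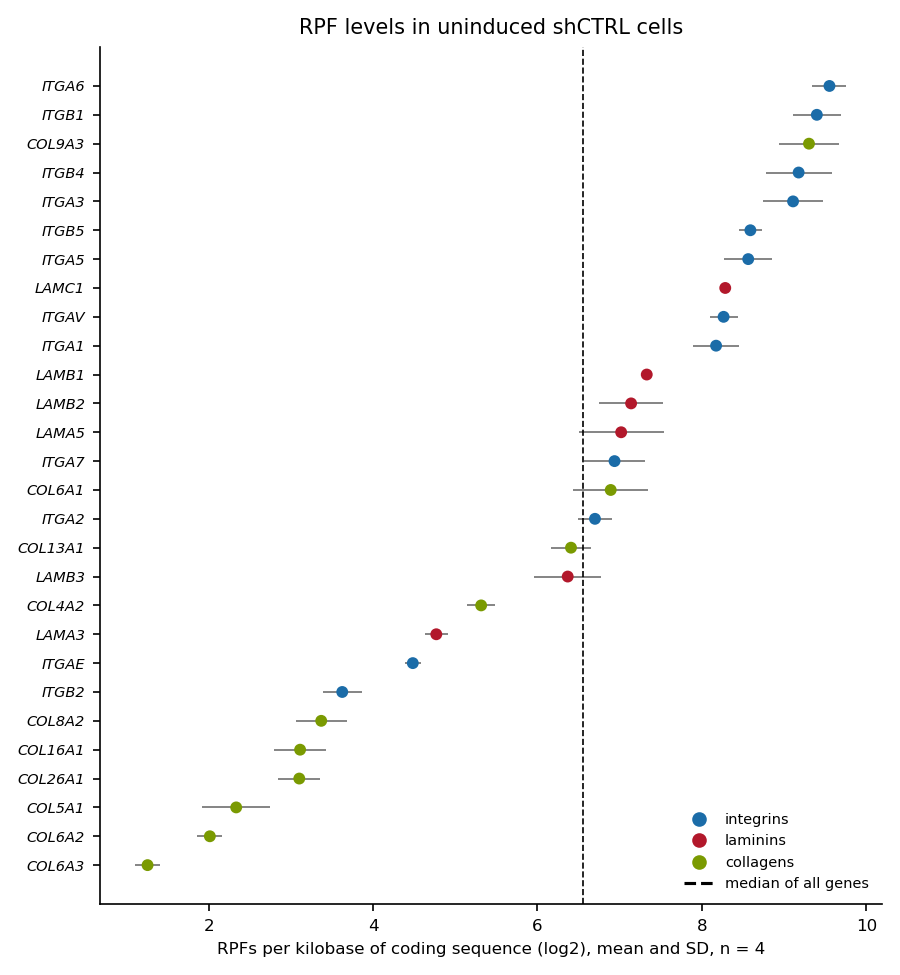
Log2 RPFs per kilobase of CDS for the 28 members with a CDS length, in uninduced shCTRL cells; points are means of 4 weeks, bars are SD, and the dashed line is the median of all genes (6.56). Integrins fill most of the upper ranks, and COL5A1, COL6A2 and COL6A3 the lowest.

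In total RNA, per kilobase of transcript, ITGA6 at 9.68 ± 0.14 and ITGB1 at 9.15 ± 0.16 also led, at percentiles 91.7 and 88.1 of all genes. ITGAE, the chain that pairs with ITGB7 on lymphocytes of the gut epithelium, ranked 5 of 25 in total RNA at 7.39 ± 0.17 (percentile 67.6). In RPFs it ranked 21 of 28 at 4.48 ± 0.10 (percentile 18.1). LAMA5 stood the other way, at rank 20 and percentile 13.5 in total RNA and at rank 13 and percentile 57.2 in RPFs. RPF and total RNA values were scaled separately, so only ranks are set side by side.

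After EIF2B1 knockdown, the laminin chains LAMA3, LAMA5, LAMB2 and LAMB3, the integrin chains ITGA3, ITGA5, ITGB2 and ITGB4, and 5 collagens rose in RPFs. The response is the +DOX minus -DOX change less the same change in shCTRL. Of 30 members 13 rose and none fell at an adjusted p under 0.1 (limma). Over all genes 27.3% were called in either direction and 12.0% were called higher. With every library centred on its median 15.4% were called higher, and the same 13 members. The median response of the members was 0.36 on the log2 scale against -0.01 over all genes. By family, 4 of 6 laminins, 4 of 12 integrins and 5 of 12 collagens rose, with median responses of 0.66, 0.07 and 0.36. Without week 1 the count was 7, without week 2 it was 15, without week 3 it was 10 and without week 4 it was 9, and without the week as a block no member was called. The shares of all genes called in the fits without a week were not counted. In a bulk lysate, more cells that make an mRNA and more of it per cell cannot be told apart.

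LAMA5, the α chain of the main laminins of adult epithelium, had RPF values in shEIF2B1 cells of 10.45, 9.56, 10.33 and 9.48 at -DOX and of 11.53, 10.88, 11.55 and 10.47 at +DOX, in weeks 1 to 4. In shCTRL cells the values were 10.98, 10.31, 10.82 and 9.84 at -DOX and 10.91, 10.98, 11.27 and 10.13 at +DOX. Every shEIF2B1 library was higher at +DOX than at -DOX in the same week and the ranges touched without overlap, while in shCTRL the ranges overlapped. The response was 0.82 ± 0.16 (log2, SE), a 1.76-fold rise, adjusted p = 0.00274, and was above 0 in 4 of 4 weeks.

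LAMB2, its β partner, went from 9.57, 8.81, 9.42 and 8.73 to 10.52, 10.17, 10.60 and 9.84 in shEIF2B1, against 10.02, 9.53, 9.66 and 9.07 to 9.91, 10.36, 10.16 and 9.36 in shCTRL. The shEIF2B1 ranges did not overlap and the shCTRL ranges did. Its response was 0.77 ± 0.19, adjusted p = 0.0085. The other chains of these trimers did not pass the test: LAMB1 had 0.19 ± 0.13 and LAMC1 0.09 ± 0.13. LAMC1 lay between 10.49 and 10.63 at -DOX and between 10.80 and 11.01 at +DOX in shEIF2B1, and between 10.51 and 10.61 and between 10.58 and 11.03 in shCTRL.

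LAMB3 and LAMA3, of the epithelial anchoring laminin, both rose. LAMB3 went from 8.21, 7.28, 7.94 and 7.29 to 9.39, 9.28, 9.37 and 8.52 in shEIF2B1, without overlap, and from 8.52, 7.80, 8.55 and 7.85 to 8.57, 9.09, 9.31 and 8.29 in shCTRL, with overlap. Its response was 0.83 ± 0.22, adjusted p = 0.0155. LAMA3 went from 7.10, 7.04, 7.09 and 6.90 to 7.79, 7.86, 7.69 and 7.75 in shEIF2B1, and from 7.14, 7.24, 7.24 and 6.95 to 6.92, 7.73, 7.50 and 7.17 in shCTRL. The induced shEIF2B1 libraries of LAMA3 lay close together and above all uninduced ones, and its response was 0.55 ± 0.16, adjusted p = 0.0259, lost without week 1 or without week 4 (adjusted p of 0.108 and 0.126).

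**Figure D2:**
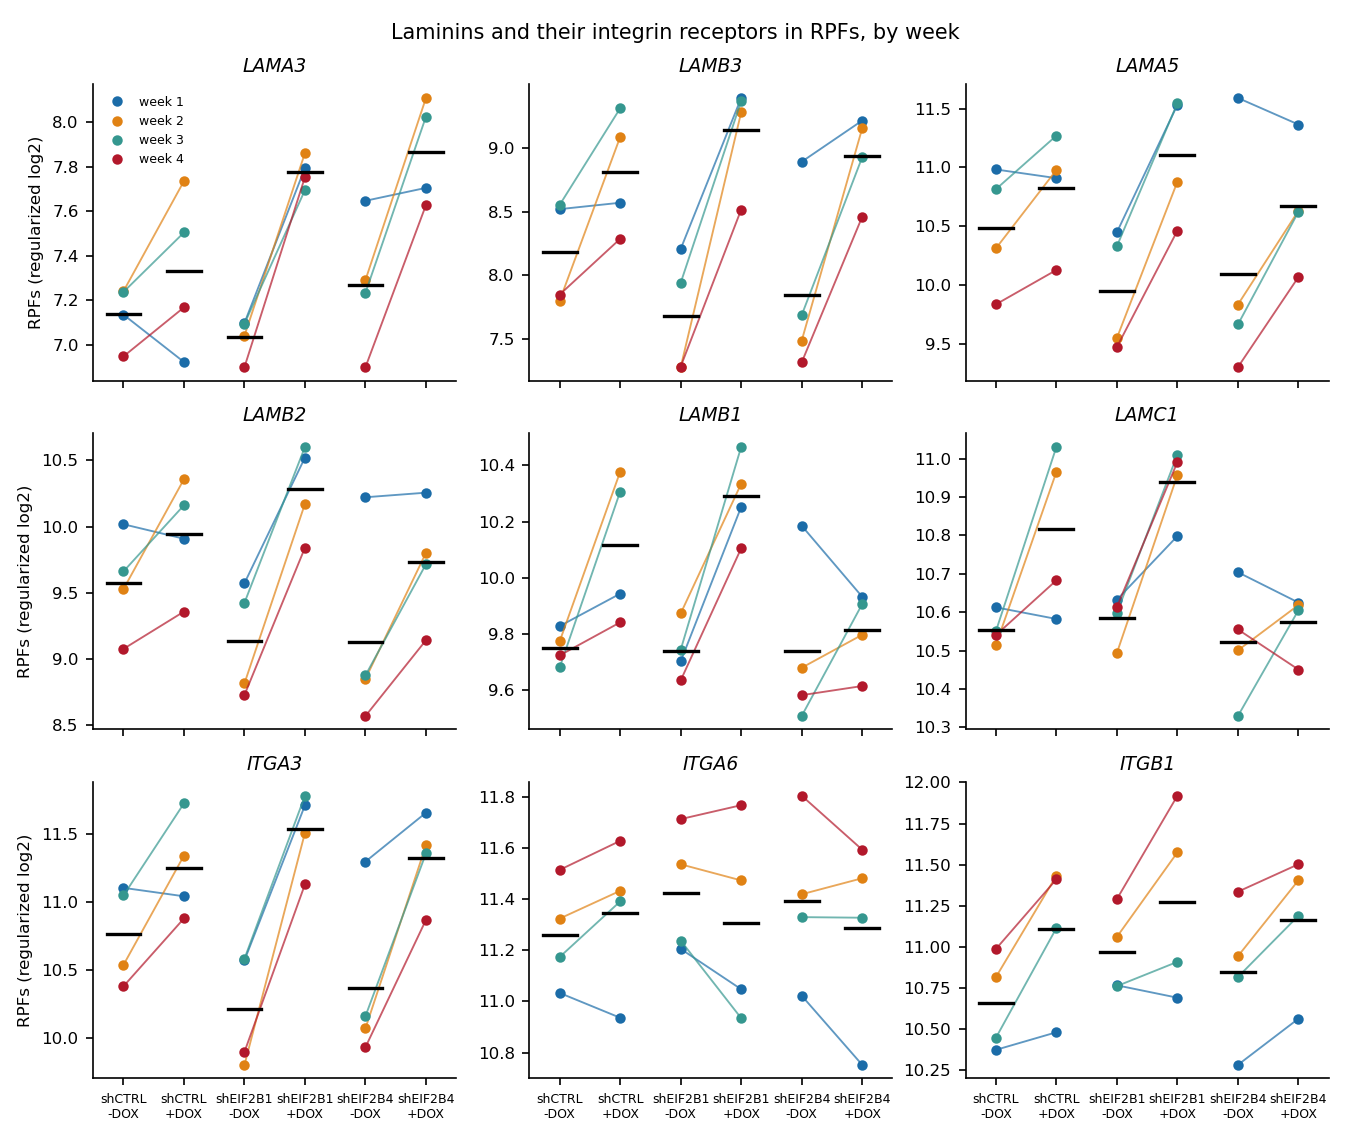
RPF values (regularized log2) of 6 laminin chains and of ITGA3, ITGA6 and ITGB1 in the 6 conditions; points are weeks, lines join -DOX and +DOX of the same week, and black bars are means of 4 weeks. LAMA3, LAMB3, LAMB2 and ITGA3 rise in every week of shEIF2B1 with no overlap between -DOX and +DOX, while ITGA6 overlaps; y axes differ between panels.

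Among integrins, ITGA3, the laminin-binding partner of ITGB1, had RPF values in shEIF2B1 of 10.57, 9.80, 10.58 and 9.90 at -DOX and of 11.71, 11.51, 11.78 and 11.13 at +DOX. In shCTRL they were 11.10, 10.53, 11.05 and 10.38, and then 11.04, 11.34, 11.72 and 10.88. The shEIF2B1 ranges were apart and the shCTRL ranges overlapped. The response was 0.84 ± 0.17, a 1.79-fold rise, adjusted p = 0.00368, above 0 in 4 of 4 weeks. ITGB4, the β chain of hemidesmosomes, rose by 0.52 ± 0.14, adjusted p = 0.0169, and without week 1 had an adjusted p of 0.108. ITGA5, the fibronectin receptor chain, rose by 0.46 ± 0.13, adjusted p = 0.0173. ITGB2, known from leukocytes and low here at 4.12 to 6.05 in shEIF2B1, rose by 0.82 ± 0.24, adjusted p = 0.0224, and without week 1 had an adjusted p of 0.101.

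No rise was called in the partner chains. ITGB1, the common β chain, had values in shEIF2B1 of 10.77, 11.06, 10.76 and 11.29 at -DOX and of 10.69, 11.57, 10.91 and 11.92 at +DOX, which overlapped, and a response of -0.15 ± 0.16 with a 95% interval of -0.49 to 0.19. ITGA6, which pairs with ITGB4, had a response of -0.20 ± 0.14, with an interval of -0.48 to 0.08, and ITGAV, a chain of receptors for vitronectin and latent TGF-β, -0.03 ± 0.13. ITGA2, a collagen receptor chain, had 0.06 ± 0.12. ITGB5, a partner of ITGAV, and ITGA1, a collagen receptor chain, had the lowest responses at -0.30 ± 0.13, adjusted p = 0.104, and -0.31 ± 0.13, adjusted p = 0.11, both below 0 in 4 of 4 weeks. With the lowest 25% of genes left out these 2 were called, lower, beside 10 members called higher of 22 tested (32.0% of all genes called). With the GC trend of each library removed, the responses of ITGB1, ITGA6, ITGAV and ITGA1 were 0.19, 0.04, 0.20 and 0.03, none of them called, while ITGA2 (0.38) and ITGB5 (-0.39) were.

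The collagens that rose were of several kinds. COL18A1, a basement membrane collagen whose end fragment is endostatin, rose by 0.59 ± 0.12, adjusted p = 0.00379. COL9A3, a chain of a fibril-associated collagen, rose by 0.56 ± 0.13, adjusted p = 0.00641, and both passed the test without each week in turn. COL6A1, COL5A1 and COL16A1 had responses of 0.54, 0.46 and 0.42, with adjusted p of 0.0435, 0.0902 and 0.053. COL6A1 and COL5A1 passed without week 2 alone, and COL16A1 in no fit that left out a week (adjusted p 0.104 to 0.16). COL4A2, a chain of the basement membrane network, had 0.02 ± 0.15, with an interval of -0.28 to 0.33. COL6A3 was the only collagen with a response below 0, at -0.24 ± 0.17.

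**Figure D3:**
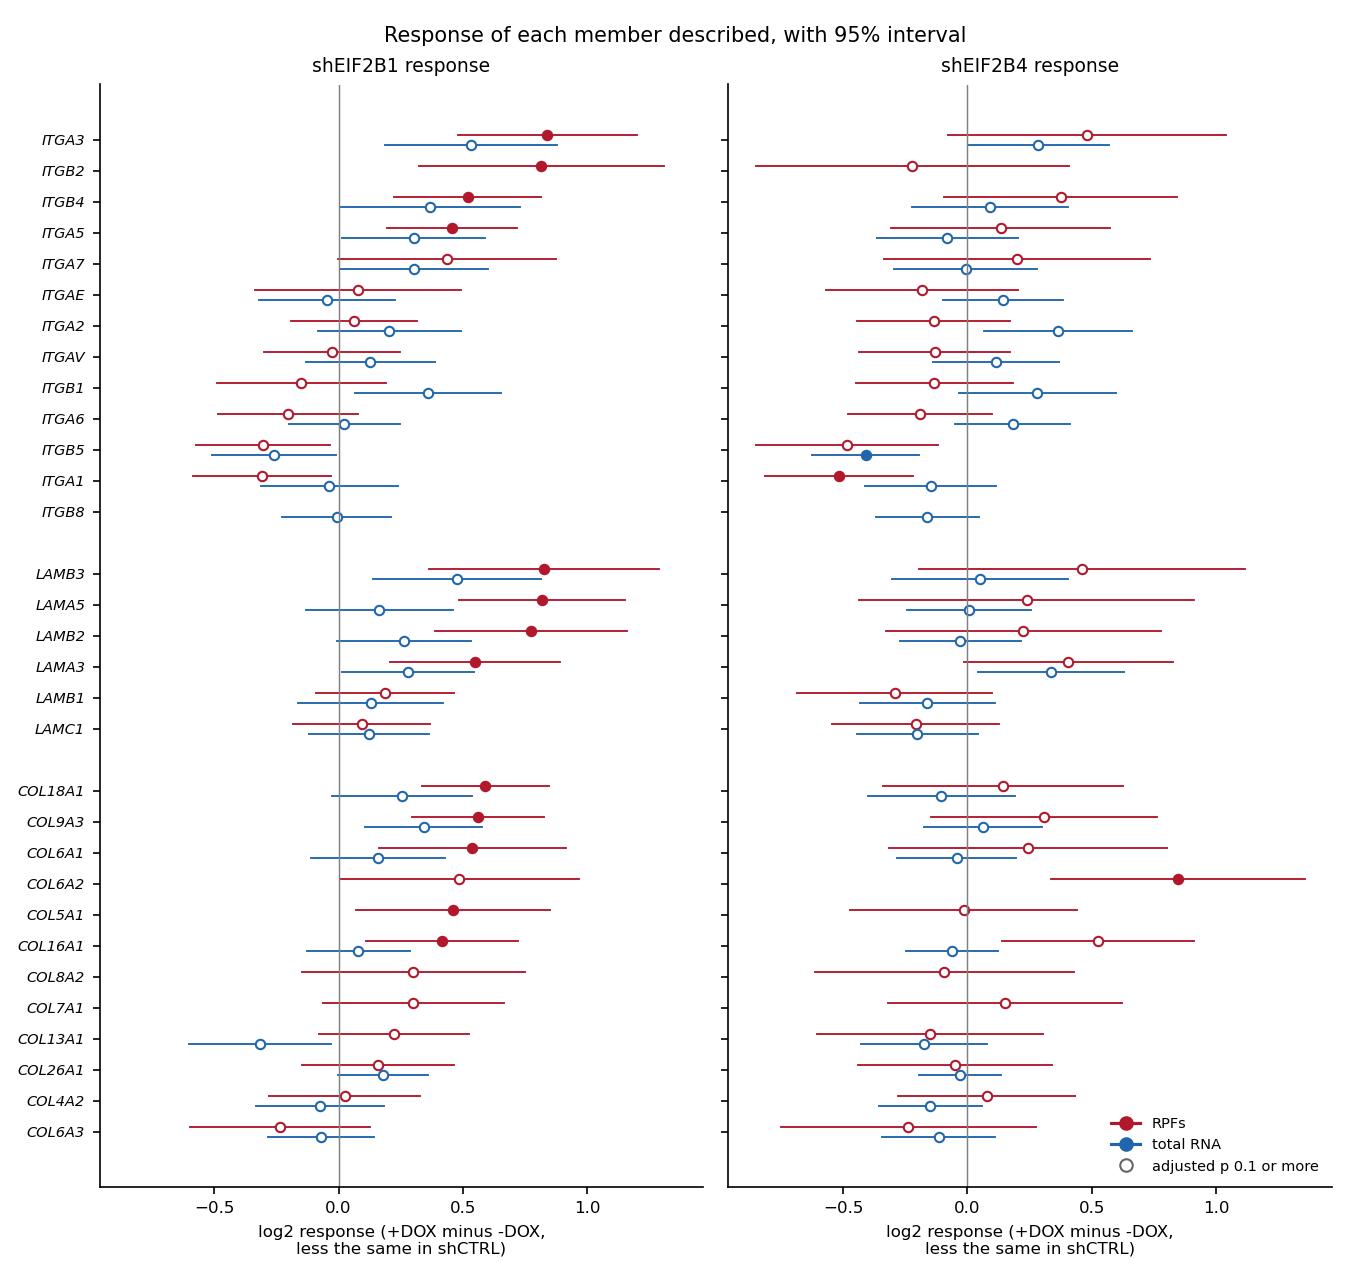
Response of each member to EIF2B1 (left) and EIF2B4 (right) knockdown in RPFs (red) and total RNA (blue), in log2 with 95% intervals from limma; filled points have an adjusted p under 0.1. In the left panel 13 red points are filled and no blue one; in the right panel COL6A2, ITGA1 and, in total RNA, ITGB5 are filled.

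In total RNA none of 26 members was called after EIF2B1 knockdown (limma), where 3.47% of all genes were, and 10 members had an unadjusted p under 0.05. The share of all genes under that unadjusted p was not counted. The median response was 0.16 on the log2 scale against -0.0038 over all genes, and 19 members lay above 0. Without week 2 ITGB5 was called, lower, and without any other week none was. ITGA3 had 0.53 ± 0.17, adjusted p = 0.119, LAMB3 0.47 ± 0.16, adjusted p = 0.156, and LAMA5 0.16 ± 0.14, adjusted p = 0.63. ITGB1 had 0.36 ± 0.14 in total RNA beside its -0.15 in RPFs. In shEIF2B1 its total RNA values were 10.98, 10.83, 10.84 and 10.99 at -DOX and 11.64, 11.19, 11.61 and 11.74 at +DOX, without overlap. In shCTRL they went from 11.20, 10.95, 10.82 and 11.09 to 11.08, 11.21, 11.41 and 11.47, with overlap.

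Translational efficiency (log2 TE, RPFs minus total RNA of a lysate) rose for 2 of 25 members after EIF2B1 knockdown, against 7.1% of all genes called in either direction and 2.97% called higher. LAMA5 had 0.65 ± 0.19, adjusted p = 0.067, and COL13A1, a membrane-spanning collagen, 0.54 ± 0.15, adjusted p = 0.0512. Both had an adjusted p over 0.1 without week 1, 3 or 4 (0.174 to 0.317). Without week 2 the members called were 5, with no share of all genes counted in that fit. For COL13A1 the RPF response was not called. Its mean total RNA went from 6.04 to 5.91 in shEIF2B1 and from 6.03 to 6.22 in shCTRL. ITGB1 had the lowest log2 TE response, -0.51 ± 0.18, adjusted p = 0.107, below 0 in 4 of 4 weeks, and passed the test without week 2. The log2 TE response correlated with CDS GC at 0.731 over 24 members and at 0.661 over all genes with a CDS. With the GC trend of each library removed no member was called.

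After EIF2B4 knockdown few members passed the test. In RPFs 2 of 30 did, where 2.75% of all genes were called, and the median response was 0.03 on the log2 scale against -0.02 over all genes. COL6A2, near the bottom of the measured range, went from 3.18, 2.99, 2.77 and 3.10 to 3.86, 4.12, 4.55 and 4.02, against 3.66, 3.51, 3.29 and 3.46 to 3.46, 4.14, 4.05 and 3.40 in shCTRL. The shEIF2B4 ranges did not overlap and the shCTRL ranges did, and the response was 0.85 ± 0.24, adjusted p = 0.0969. ITGA1 went from 9.20, 9.92, 9.86 and 10.16 to 8.81, 9.62, 9.37 and 9.81 in shEIF2B4, lower in every week with overlapping ranges. In shCTRL it went from 9.72, 10.10, 9.82 and 10.33 to 9.59, 10.42, 10.03 and 10.49, and the response was -0.52 ± 0.14, adjusted p = 0.084. Neither was called without week 2, 3 or 4. With the GC trend of each library removed neither was called, and ITGB5 was the 1 member called, lower. Without the 4 libraries of week 1, of which the uninduced shEIF2B4 library stood apart from its group though not from its week, 7 members were called. COL16A1, COL6A2, ITGA3, ITGB4 and LAMA3 were higher and ITGA1 and ITGB5 lower. The share of all genes called in that fit was not counted.

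In total RNA 1 of 26 members passed after EIF2B4 knockdown, where 5.4% of all genes were called. ITGB5 went from 10.13, 10.08, 10.23 and 10.08 to 10.00, 10.04, 9.92 and 10.06, while in shCTRL it went from 10.04, 10.09, 9.87 and 10.12 to 10.19, 10.27, 10.35 and 10.44. It was lower at +DOX in every week in shEIF2B4 and higher in every week in shCTRL, and its response was -0.41 ± 0.10, adjusted p = 0.0339. Without week 1 it was called, beside LAMA3 (higher), and it was not called without week 2, 3 or 4 (adjusted p 0.102 to 0.181). In RPFs the response of ITGB5 was -0.48 ± 0.17, adjusted p = 0.181. In log2 TE none of 25 members was called (limma), where 0.0923% of all genes were. An unadjusted p under 0.05 was found for 5 members, with no share of all genes counted at that cut. Without week 1 there were 3 calls, COL16A1 higher and ITGA1 and ITGA2 lower, with no share of all genes counted in that fit.

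For no member did the tests tell the 2 knockdowns apart. No member was called in the contrast of the responses, in RPFs or in total RNA (limma), where 0.00897% and 0.1% of all genes were. At an unadjusted p under 0.05 there were 6 of 30 and 9 of 26, with no share of all genes counted at that cut. For LAMA5 the difference, EIF2B1 minus EIF2B4, was 0.58 in RPFs with a 95% interval of -0.03 to 1.19. The difference was 0.37 for LAMB3 (-0.21 to 0.95), 0.36 for ITGA3 (-0.14 to 0.86) and 0.14 for LAMA3 (-0.24 to 0.52). The largest was that of ITGB2, 1.04 (0.44 to 1.63), adjusted p = 0.745. Both responses are set against the same shCTRL libraries.

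Before induction, members already differed between the shEIF2B1 and shCTRL lines in RPFs. Of 30 members 20 were called, 17 lower and 3 higher in uninduced shEIF2B1, where 54.1% of all genes were called, 25.1% lower and 29.0% higher. With every library centred on its median 20 members were called too, of which ITGA2 and ITGB1 alone were higher. Of all genes 32.7% were then lower and 23.5% higher. COL9A3 was lower by a difference of -0.67 ± 0.08 (10.71, 10.31, 10.48 and 9.84 in shCTRL, 10.08, 9.45, 9.71 and 9.43 in shEIF2B1), adjusted p = 1.32e-05. ITGA3 differed by -0.55 ± 0.07, LAMA5 by -0.53 ± 0.08 and LAMB3 by -0.50 ± 0.08, and each was lower in 4 of 4 weeks. ITGB1, ITGA2 and ITGA6 were higher, by 0.31, 0.22 and 0.16, but with the GC trend of each library removed their differences were below 0, and the 10 members then called were all lower (13.2% of all genes called). COL4A2 was called without week 1 alone and ITGA6 without week 3 alone, ITGB2 was lost without week 2 or 3, and ITGA2 without week 2. In total RNA COL9A3 alone was called, at -0.25 ± 0.06, adjusted p = 0.0972, where 1.4% of all genes were, and it was called in no fit that left out a week. The target was itself lower in this line before induction. EIF2B1 had RPF values of 8.35, 8.26, 8.46 and 8.34 in uninduced shEIF2B1 against 8.79, 8.81, 8.91 and 8.68 in uninduced shCTRL, and total RNA values of 8.19 to 8.38 against 8.43 to 8.66, without overlap in either. These uninduced libraries also enter the shEIF2B1 response with the opposite sign, so the 2 comparisons are not independent.

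The uninduced shEIF2B4 line had 8 of 30 members called in RPFs, where 13.9% of all genes were (12.4% lower, 1.55% higher). COL9A3, COL5A1, COL13A1, ITGA7, COL6A3, COL6A2, COL16A1 and COL7A1 were lower and no member was higher. The median over all genes was itself shifted by -0.13, and with every library centred on its median none of the 8 was called (0.153% of all genes). Without week 1 the count was 21, without week 2 or 4 it was 0 and without week 3 it was 2, with no share of all genes counted in these fits. With the GC trend of each library removed ITGA1 alone was called, lower (1.3% of all genes called). In total RNA ITGA1 was the 1 member called of 26, where 2.32% of all genes were, lower in uninduced shEIF2B4 by a difference of -0.30 ± 0.06, adjusted p = 0.0501. It was called without week 3 and in no other fit that left out a week. EIF2B4 in its own uninduced line was lower than in shCTRL in every week, at 7.55 to 8.06 against 7.78 to 8.47 in RPFs and at 6.88 to 7.42 against 7.19 to 7.59 in total RNA, with overlap. The sources used here do not state whether the values of this line were made in the same run as those of shCTRL, so the 2 may not be on one scale.

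The RPF responses to knockdown and the RPF differences between uninduced lines lined up with the base composition of the CDS. For the RPF change in shCTRL on induction the correlation with CDS GC was -0.22 over 28 members. Among the 28 members with a matched CDS, 11 of the 21 with a CDS GC of 50% or more rose after EIF2B1 knockdown, and 1 of the 7 below 50%, LAMA3. Over all genes the shares called higher were 19.4% and 1.91%. Across members the correlation of CDS GC with the RPF response was 0.595 (n = 28), and with the uninduced difference -0.777. Over all 10848 genes with a CDS these were 0.634 and -0.811. Genes are not independent replicates, and all points share the same 16 libraries, so no p is given. In total RNA the correlation with the response was 0.125 over 25 members. For the RPF response to EIF2B4 knockdown it was 0.497 over 28 members and 0.548 over all genes with a CDS. Among members of 50% GC or more, ITGB5 (55.8%), COL6A3 (55.6%) and COL4A2 (63.2%) had the lowest RPF responses, at -0.30, -0.24 and 0.02, and LAMA3 (48.2%) had the highest of those below 50%.

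With the GC trend of each library removed, 7 members were called in RPFs after EIF2B1 knockdown, where 8.34% of 10848 genes were. LAMA3 rose by 0.67 ± 0.16, adjusted p = 0.0257, ITGA3 by 0.65 ± 0.16, LAMB3 by 0.62 ± 0.21, LAMB2 by 0.58 ± 0.17, LAMA5 by 0.50 ± 0.14 and ITGA2 by 0.38 ± 0.11. ITGB5 fell by 0.39 ± 0.12. No collagen was called, COL9A3 having 0.17 ± 0.11 and COL6A1 0.25 ± 0.16, and COL18A1 could not be tested for want of a matched CDS. LAMA5, LAMB2, LAMB3, LAMA3 and ITGA3 were thus called with and without the trend. When only +DOX libraries were compared, shEIF2B1 with shCTRL, 8 members were called (10.5% of all genes). LAMA3 (0.44), LAMB2 (0.34), LAMB3 (0.32), ITGB2 (0.54), COL6A2 (0.40) and ITGA2 (0.29) were higher, and ITGB5 (-0.56) and COL6A3 (-0.44) lower. LAMA5 and ITGA3 were not called there, at 0.28 and 0.29.

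Members also changed in the control line, in which doxycycline induces the non-targeting shRNA. In shCTRL RPFs 9 of 30 members rose and none fell, where 9.85% of all genes were called and 5.23% were called higher. With median-centred libraries 7 members rose, where 4.09% of all genes were called higher. The largest rises were those of LAMB3 at 0.63 ± 0.15, COL6A3 at 0.50 ± 0.14, ITGA3 at 0.48 ± 0.13 and ITGB2 at 0.46 ± 0.15. In total RNA 5 of 26 members were called, where 4.44% of all genes were. LAMB1 rose by 0.41 ± 0.10, ITGA3 by 0.36 ± 0.09, LAMB2 by 0.31 ± 0.09 and ITGB5 by 0.28 ± 0.07, and ITGAE fell by 0.28 ± 0.08. Without week 1, in which LAMB3 changed less than in any other week (0.05), 19 members were called in RPFs and 16 in total RNA. Without week 2, 3 or 4 none was called in either. The shares of all genes called in these fits were not counted, so whether the whole table moved likewise is not known. Within shEIF2B1 alone, with no shCTRL change subtracted, 24 of 30 members were called in RPFs, all higher (49.4% of all genes in either direction).

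Other genes of cell-matrix adhesion were read from 4 lists, written with results of these data known, against a background of 12.0% of genes called higher and 15.3% lower in RPFs after EIF2B1 knockdown. Of 24 measured adaptors and kinases of integrin adhesions, 4 rose and 3 fell in RPFs after EIF2B1 knockdown. FHL2, a LIM-domain protein of adhesions, rose by 0.48 ± 0.13, while KRIT1, which binds the integrin regulator ICAP1, and FERMT2, a kindlin that binds integrin tails, fell by 0.75 ± 0.15 and 0.54 ± 0.21. FERMT1, the epithelial kindlin that activates integrins, rose in total RNA after EIF2B4 knockdown by 0.88 ± 0.12. Of 17 other basement membrane proteins and matrix receptors, 4 rose and 1 fell in RPFs after EIF2B1 knockdown. PLEC, which ties ITGB4 to keratin filaments, rose by 0.96 ± 0.19 there and by 1.06 ± 0.22 after EIF2B4 knockdown, and AGRN, a basement membrane proteoglycan, by 0.75 ± 0.14. SPARC, a collagen-binding matrix protein, fell by 0.37 ± 0.15 and, after EIF2B4 knockdown, by 1.06 ± 0.20 in RPFs. FN1, fibronectin, fell by 0.55 ± 0.11 in total RNA after EIF2B4 knockdown.

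Of 24 measured genes of collagen folding, modification and secretion, 5 rose and 1 fell in RPFs after EIF2B1 knockdown, and 1 rose after EIF2B4 knockdown. LOX, the oxidase that cross-links collagen and elastin, rose by 1.62 ± 0.19 and 1.14 ± 0.20 in RPFs after EIF2B1 and EIF2B4 knockdown, and by 1.24 ± 0.17 and 0.91 ± 0.15 in total RNA. MIA2, which loads collagen into transport carriers, rose by 1.23 ± 0.13 in total RNA after EIF2B4 knockdown. P4HA1, a catalytic subunit of collagen prolyl hydroxylase, fell by 0.64 ± 0.13 in RPFs after EIF2B1 knockdown, and LOXL2 fell by 0.45 ± 0.11 in total RNA after EIF2B4 knockdown. Of 14 matrix proteases and inhibitors, 3 rose and 2 fell in RPFs after EIF2B1 knockdown and none was called after EIF2B4 knockdown. MMP11 rose by 0.65 ± 0.26 and ADAM15 by 0.56 ± 0.12, and the sheddases ADAM10 and ADAM9 fell by 0.46 ± 0.13 and 0.42 ± 0.16. In total RNA after EIF2B1 knockdown 1 of 25 adaptors rose and 1 fell, 1 of 18 basement membrane genes and 2 of 24 collagen-processing genes rose, and none of 14 proteases was called, where 2.34% of all genes rose and 1.13% fell. In total RNA after EIF2B4 knockdown 2 adaptors rose, 1 basement membrane gene rose and 3 fell, 2 collagen-processing genes rose and 1 fell, and no protease was called, of the same numbers measured, where 3.78% of all genes rose and 1.62% fell. In RPFs after EIF2B4 knockdown 1.88% of all genes rose and 0.87% fell.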

How the data were processed

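Per the methods of the study, RPFs and total cytoplasmic RNA of the same 24 lysates were sequenced, and the 4 replicates came from separate weeks. The authors aligned reads to GENCODE v38 protein-coding transcripts with Bowtie2, counted RPFs on the CDS and quantified total RNA with RSEM, and joined 2 sequencing runs of replicate 3. The deposited values are regularized log2 values made with DESeq2, separately for RPFs and total RNA, and span 2.02 to 16.1 and 2.8 to 19.9. They hold no read counts, so depth is unknown, no interval from counting can be given and no count test was possible. Because libraries were scaled to one another, a change shared by all genes is not visible.

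Each response was fitted with limma 3.58.1 in R 4.3.3 (lmFit, then eBayes with a mean-variance trend) on the 16 libraries of a knockdown line and shCTRL, with replicate, line, DOX and line by DOX as terms. The product term is the response. The knockdowns were contrasted over 24 libraries, and shCTRL induction and the uninduced lines over 8. Calls were made at a Benjamini-Hochberg adjusted p under 0.1 over all genes of a table, two-sided. The replicate number was used as a block because the series' design text says that replicates were run in separate weeks. After group means were removed, 52 of 60 same-week pairs of RPF libraries, 37 of 60 of total RNA and 55 of 60 of log2 TE had a correlation over 0.1. For COL6A2, ITGB2 and the other genes low in RPFs the regularization pulls differences towards 0.

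CDS were taken from GENCODE v29 on GRCh38, matched by transcript, which covered 97.3% (RPF table) and 97.1% (total RNA table) of genes and 28 of 30 and 25 of 26 members. The transcript version was the same for 31.2% and 32.7%, so lengths and GC are approximate. For the GC-removed fits a spline with 5 degrees of freedom of CDS GC was subtracted from each library.

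The symbol rule finds 32 genes, of which 1 is not reported here. Members and lists were chosen with earlier results of these data known. Named members are the chains of the epithelial laminins and their receptors, COL4A2 and COL18A1, the 3 largest rises and falls per response among called members with 1 sign in 4 weeks, and up to 4 called members of each other comparison. For the lists, the 2 largest rises and falls are named. Other members are named where a value completes a complex or count, after their values were seen. Alternatives were fits without the replicate block, without the trend, without the lowest 25% of genes, median-centred, over 24 lysates, without the shCTRL correction and without each week. The GC-removed fit and the +DOX-only fit were added after seeing the data.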

Additional observations from a re-analysis of the deposited data

Results flagged for a closer look

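In 12 of 270 groups of 4 weeks, the highest or lowest value stood farther from the other 3 than Dixon's limit allows. About 13.5 would be expected if groups were independent and weeks alike. Weeks differed and groups share libraries, so that number is a rough guide only. Of the 12, 6 lay in week 1, and 2 each in weeks 2, 3 and 4. Of the 6, 5 were high values of the uninduced shEIF2B4 RPF library of week 1, whose genes of high CDS GC stood high. ITGA3 was 11.29 there against 9.93 to 10.16 in the other weeks, ITGA5 10.66 against 9.60 to 9.77 and ITGB4 12.20 against 10.76 to 10.95. ITGB5 was 10.13 against 9.46 to 9.50 and COL6A1 9.17 against 7.69 to 7.79. The fits without week 1 leave out every library of that week, so the part of this library alone in the EIF2B4 counts was not tested.

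The other RPF values were ITGA2 in induced shEIF2B4 in week 1 (8.36 against 8.98 to 9.06), LAMC1 in induced shEIF2B4 in week 4 (10.45 against 10.61 to 10.63) and LAMB3 in induced shEIF2B1 in week 4 (8.52 against 9.28 to 9.39). In total RNA, LAMA5 in induced shEIF2B1 was 7.79 in week 2 against 7.17 to 7.26. ITGA3 in induced shEIF2B4 was 8.97 in week 2 against 8.72 to 8.74. COL13A1 in uninduced shCTRL was 5.78 in week 3 against 6.10 to 6.12, and COL16A1 in uninduced shEIF2B1 was 4.82 in week 3 against 4.59 to 4.62.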

How the results depend on the processing

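Counts are of members called. Where no share of all genes stands beside a count, whether the whole table moved likewise cannot be read from it. Without the replicate block they fell to 0 for RPFs after shEIF2B1, RPFs after shEIF2B4, RPFs in shCTRL, RPFs of uninduced shEIF2B1 and of uninduced shEIF2B4, total RNA in shCTRL, total RNA of both uninduced lines and log2 TE after shEIF2B1, and stayed at 1 for total RNA after shEIF2B4. With all 24 lysates in one fit they were 8 (RPFs), 2 (total RNA) and 0 (log2 TE) after shEIF2B1. With no shCTRL correction shEIF2B1 had 24 (RPFs), 17 (total RNA) and 9 (log2 TE), where 49.4%, 34.4% and 17.1% of all genes were called, and shEIF2B4 13, 14 and 4, where 23.8%, 34.4% and 6.21% were. With the CDS GC trend removed they were 7 (RPFs), 2 (total RNA) and 0 (log2 TE) after shEIF2B1, where 8.34% of all genes were called in RPFs. In RPFs after shEIF2B4 the count was 1, which was ITGB5 and neither COL6A2 nor ITGA1. The counts were 10 and 1 in RPFs of uninduced shEIF2B1 and shEIF2B4, where 13.2% and 1.3% of all genes were called. In total RNA of uninduced shEIF2B4 the count was 0. With induced libraries only they were 8 and 13 in RPFs, 3 and 11 in total RNA and 0 and 2 in log2 TE after shEIF2B1 and shEIF2B4, where 10.5% and 29.4%, 7.64% and 30.0%, and 0.388% and 3.03% of all genes were called. With no mean-variance trend they were 1 in RPFs after shEIF2B4 and 0 in total RNA of uninduced shEIF2B1. With the lowest 25% left out they were 1 in RPFs after shEIF2B4, 0 in RPFs and 0 in total RNA of uninduced shEIF2B4, and 4 in log2 TE after shEIF2B1. Median-centred, they were 0 in RPFs of uninduced shEIF2B4, where 0.153% of all genes were called, and 3 in total RNA in shCTRL. The causes of these shifts were not tested. Direction reversed for COL9A3 in RPFs after shEIF2B1 with induced libraries only (-0.11), and, with the GC trend removed, for RPFs of uninduced shEIF2B1 in COL4A2 (0.045), ITGA2 (-0.13), ITGA6 (-0.11) and ITGB1 (-0.069). Over single members and alternatives, 346 values kept direction and side of the threshold, 242 kept direction and lost the call and 5 reversed.

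Leaving out each week in turn gave ranges, in RPFs, of 7 to 15 after shEIF2B1, 0 to 7 after shEIF2B4, 0 to 19 in shCTRL, 16 to 19 in uninduced shEIF2B1, 0 to 21 in uninduced shEIF2B4 and 0 between the knockdowns. In total RNA they were 0 to 1, 0 to 2, 0 to 16, 0, 0 to 1 and 0 in the same order, and in log2 TE 0 to 5 after shEIF2B1 and 0 to 3 after shEIF2B4. For every fit without a week the share of all genes called was not counted, so these ranges have no background beside them. Depth is unknown, so no limit from counting can be given.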
